A study of Homo sapiens with 6 samples.

Results

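The genes described here are those of the ATF4 and unfolded protein response pathways in SUM159 cells that overexpress POGK. They are 38 genes chosen by symbol, for their place in these pathways, with earlier results of these data known. All 38 were found among the 18398 genes of the counted table, and all 38 passed the filter on low counts that left 15889 genes to test. SUM159 is an established human breast cancer line of the triple-negative, mesenchymal type. The groups were 3 libraries of cells stably carrying the pLVX lentiviral vector with POGK, called POGK cells, and 3 libraries of cells carrying pLVX without POGK, called control cells. Both were grown in Ham's F12 medium with serum, insulin and hydrocortisone. POGK derives from a pogo-type DNA transposon and carries a KRAB domain, and the stated aim was to find the genes it regulates. Whether the stable cells were 1 clone or a pool, and whether replicates were separate cultures, is not given in the labels, so the p-values speak of the spread among these libraries alone, which may be technical.

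The integrated stress response and the unfolded protein response are linked programmes. Kinases that sense amino acid shortage or misfolded protein phosphorylate the initiation factor eIF2, which lowers protein synthesis in general but raises translation of the ATF4 mRNA. ATF4 then turns on genes of amino acid synthesis, amino acid uptake and cell stress, often from composite C/EBP-ATF sites. In the endoplasmic reticulum (ER), the sensor IRE1 acts through the factor XBP1, and ATF6 is itself cleaved to an active factor. Both turn on chaperones and degradation genes, many with ER stress response elements in their promoters. The activities of ATF4, XBP1 and ATF6 depend largely on translation, splicing and cleavage, which gene-level read counts do not show.

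Promoter sequences from RefSeq (build GRCh38.p14), taken from 250 bases before to 50 bases after the annotated start, were available for 35 of the 38 genes, all but NUPR1, PYCR1 and PDIA3. Exact matches were sought on both strands. The ER stress response element I, CCAAT and CCACG with 9 bases between them, was found in 5 of the 35, namely XBP1, CALR, CANX, PDIA6 and CRELD2, and in 0.0916% of the 27305 genes in the promoter table. Element II, ATTGG and CCACG with 1 base between them, was found in HYOU1, SDF2L1 and HERPUD1, and in 0.0696% of all genes. The composite site TGATGNAA was found in 7 of the 35, namely PPP1R15B, CEBPG, JDP2, CHAC1, ASNS, CREB3L2 and HERPUD1, and in 4.46% of all genes. The heptamer TGACGTG, of the type bound by XBP1 and ATF6, was found in ALDH18A1 and HYOU1, and in 2.4% of all genes. In HYOU1 it overlaps an element II match. A match is a description of letters and not evidence of binding.

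Stretches upstream of the start are shown for the genes with the smallest adjusted p that had a match there. Genes with ER stress response elements and genes with composite sites were ranked separately. Those with ER stress response elements were called in both directions in POGK cells. Capitals mark the match, which reads as the reverse complement where it lies on the other strand. SDF2L1 (chr22:21642074-21642164, plus strand) and CRELD2 (chr22:49918514-49918612, plus strand) were higher in POGK cells. CANX (chr5:179698738-179698836, plus strand) and HERPUD1 (chr16:56931926-56932075, plus strand) were lower, and HERPUD1 carries a composite site as well as element II.
SDF2L1: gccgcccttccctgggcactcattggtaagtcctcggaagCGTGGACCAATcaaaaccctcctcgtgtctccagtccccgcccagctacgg
CRELD2: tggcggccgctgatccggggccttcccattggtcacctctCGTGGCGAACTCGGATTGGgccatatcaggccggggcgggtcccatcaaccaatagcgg
CANX: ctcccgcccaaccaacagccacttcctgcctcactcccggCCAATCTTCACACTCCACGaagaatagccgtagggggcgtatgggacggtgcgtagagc
HERPUD1: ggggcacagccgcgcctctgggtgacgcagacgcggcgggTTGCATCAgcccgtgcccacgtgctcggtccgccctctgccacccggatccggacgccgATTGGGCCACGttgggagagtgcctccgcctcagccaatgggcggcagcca

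Composite sites are shown for JDP2 (chr14:75427966-75428021, plus strand), PPP1R15B (chr1:204411997-204412067, minus strand) and ASNS (chr7:97872429-97872516, minus strand). CHAC1 (chr15:40953222-40953309, plus strand) and CEBPG (chr19:33374031-33374112, plus strand) were added after their values were seen. They, like ASNS, were at least 2-fold higher in control library 2 than in both other control libraries. JDP2 was also highest in control library 2, but only 1.13-fold above the higher of the other control libraries.
JDP2: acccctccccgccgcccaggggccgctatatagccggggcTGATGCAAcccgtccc
PPP1R15B: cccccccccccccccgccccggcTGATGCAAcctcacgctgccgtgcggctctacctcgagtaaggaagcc
ASNS: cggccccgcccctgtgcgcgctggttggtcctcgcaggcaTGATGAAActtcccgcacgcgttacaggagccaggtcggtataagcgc
CHAC1: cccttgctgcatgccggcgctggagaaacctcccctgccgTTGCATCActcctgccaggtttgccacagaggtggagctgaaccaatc
CEBPG: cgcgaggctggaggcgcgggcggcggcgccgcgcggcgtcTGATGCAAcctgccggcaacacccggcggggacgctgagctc

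Libraries held 27645789 to 33689230 counts. POGK itself had 743 to 781 CPM (counts scaled to a common library size by the TMM method) in POGK cells and 62.6 to 77.3 CPM in control cells. Of 6 mesenchymal markers of the line all 6 were in the table, with summed levels of 5590.3 to 5647 CPM in POGK cells and 9288 to 11722 CPM in control cells. VIM, CD44, FN1, ZEB1 and TWIST1 were called lower in POGK cells. CAV1 went the other way, at 554 ± 4.95 CPM in POGK cells and 315 ± 20.1 CPM in control cells (edgeR adjusted p = 3.04e-05). Of 6 markers that such a line should lack or hold at low levels 4 were in the table, with summed levels of 283 to 295 CPM in POGK cells and 174 to 221 CPM in control cells. ESR1 and EPCAM among them stayed at or below 0.337 CPM in every library. Most of the sum was KRT18, a keratin of luminal epithelium, at 201 to 208 CPM in POGK cells and 107 to 143 CPM in control cells. ERBB2 was not near 0 either, at 81.8 to 87.5 CPM in POGK cells and 66.4 to 77.2 CPM in control cells. It was called higher in POGK cells (edgeR adjusted p = 0.0246). Of 8 markers of leukocytes, endothelium, liver and muscle 3 were in the table, with summed levels of 6.21 to 6.83 CPM in POGK cells and 5.23 to 7.04 CPM in control cells. Within that sum the leukocyte genes PTPRC and ITGAM were 3.04-fold and 2.23-fold higher in POGK cells (edgeR adjusted p = 0.00148 and 0.00878), at no more than 1.99 CPM in any library, and the endothelial gene PECAM1 was 1.31-fold lower (edgeR adjusted p = 0.0433). Mitochondrial mRNAs took 3.71 ± 0.154% of counts in POGK cells and 1.79 ± 0.686% in control cells, and ribosomal protein genes with a numbered RPL or RPS symbol took 4.75 ± 0.0633% in POGK cells and 8.48 ± 0.78% in control cells (SD, n = 3 each; two-sided exact permutation p = 0.1 for both, the smallest possible). Their part in the results below was not tested.

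Control libraries differed among themselves more than POGK libraries did. The median absolute log2 difference between 2 libraries over the 38 genes was 0.03 to 0.07 for pairs of POGK libraries and 0.21 to 0.23 for pairs of control libraries. Over all genes tested it was 0.07 to 0.08 for POGK pairs and 0.19 to 0.26 for control pairs. It was 0.26 for control libraries 1 and 2, 0.21 for 1 and 3 and 0.19 for 2 and 3. Over all genes, control library 1 thus lay farthest from the others. Control library 2 lay between the other control libraries in mitochondrial share (1.97%, against 1.03% and 2.36%) and in ribosomal protein share (8.24%, against 9.35% and 7.85%). On some genes of this report it nevertheless stood apart in the way described below. Each control library is therefore given by its number, and each result that rests on control library 2 with and without it.

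Of the 38 genes, 8 were higher, 17 were lower and 13 did not pass in POGK cells by edgeR's quasi-likelihood test at an adjusted p below 0.05 over all genes tested. Together these 25 calls are 65.8% of the genes, and 66.0% of all genes tested were called, so the share called is near the background. The higher calls are 21.1% of the 38 against 32.7% of all genes, and the lower calls 44.7% against 33.3%. At least 2-fold differences were found for 1 higher gene (2.63%, against 9.58% of all genes) and 7 lower genes (18.4%, against 12.7%). POGK and control libraries were fully separate for 27 of the 38 (71.1%, against 73.7% of all genes). The median log2 fold change of POGK over control was -0.23, beside 0 for all genes. Without control library 2, 14 genes were higher (36.8%, against 34.9% of all genes) and 16 lower (42.1%, against 34.3%), and the median was -0.04. DDIT3 and ERN1 then fell less than 2-fold (1.92-fold and 1.98-fold), and CHAC1 and CTH were called higher at 6.36-fold and 2.02-fold. With library size alone as scaling, which moved the median of all genes to 0.19, 13 were higher and 12 lower, so directions are relative to the TMM scale.

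**Figure D1:**
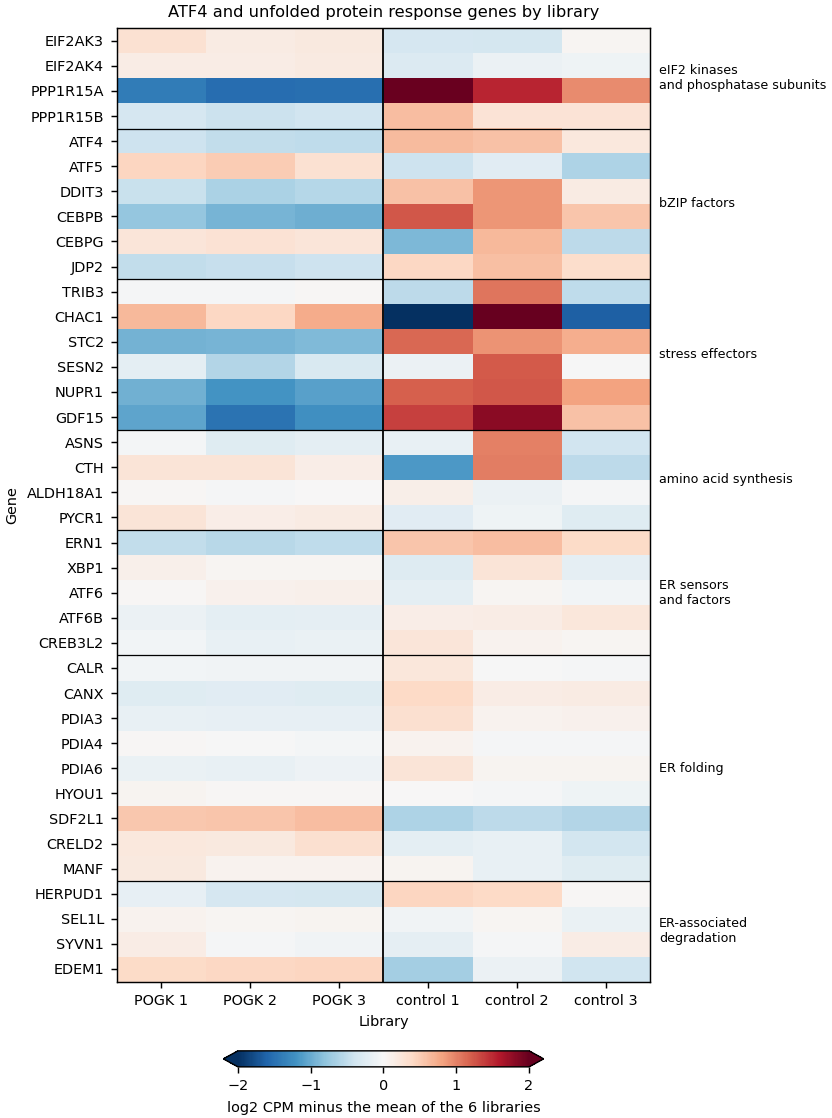
Level of each of the 38 genes (rows, grouped by role) in each library (columns, 3 POGK and 3 control), as log2 CPM minus the gene's mean over the 6 libraries, with colours capped at 2 in either direction. PPP1R15A, CEBPB, STC2, NUPR1 and GDF15 are low in all 3 POGK libraries, and CHAC1, TRIB3, CTH, CEBPG, SESN2 and ASNS are highest in control 2.

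Among the 4 genes for enzymes that add or remove the phosphate on eIF2, the kinases EIF2AK3 and EIF2AK4 were higher and the phosphatase subunits PPP1R15A and PPP1R15B lower. PPP1R15A, also called GADD34, the stress-induced subunit that brings phosphatase to eIF2, had 65.2, 59.9 and 60.5 CPM in POGK libraries 1 to 3, against 682, 496 and 333 CPM in control libraries 1 to 3. All POGK values were far below the lowest control value, and the control values themselves spread 34.7% (coefficient of variation). It fell 8.14-fold, with a log2 fold change of -3.03 ± 0.24 (SE; edgeR adjusted p = 2.17e-05), the largest difference of the 38 genes. It lies at chr19:48872212-48876059 on the plus strand of hg38. In bulk RNA such as this, fewer cells that express a gene and less RNA per cell cannot be told apart.

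PPP1R15B, the constitutive subunit, fell to 124 ± 4.53 CPM in POGK cells, against 213 ± 31.1 CPM in control cells (SD, n = 3 each; edgeR adjusted p = 2.06e-04). EIF2AK3, also called PERK, the kinase that senses misfolded protein in the ER, had 40.4, 36.7 and 37.8 CPM in POGK libraries and 25.9, 25.7 and 33.6 CPM in control libraries. The log2 fold change was 0.43 ± 0.11 (edgeR adjusted p = 0.00906). EIF2AK4, also called GCN2, the kinase that senses uncharged tRNA, rose to 212 ± 1.76 CPM, against 170.3 ± 11.7 CPM in control cells (n = 3 each), a log2 fold change of 0.32 ± 0.07 (edgeR adjusted p = 0.00396). These 4 genes were called the same way without any 1 library. Of the remaining eIF2 kinases, named to complete the family after their values were seen, EIF2AK2, also called PKR, rose to 166 ± 4.11 CPM in POGK cells, against 131 ± 7.39 CPM in control cells (n = 3 each; edgeR adjusted p = 0.0018). EIF2AK1, also called HRI, averaged 314 ± 3.84 CPM in POGK cells and 329 ± 9.9 CPM in control cells (n = 3 each) and did not pass (edgeR adjusted p = 0.377).

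Of the 6 bZIP transcription factors, 4 fell (66.7%, against 33.3% of all genes tested), 1 rose (16.7%, against 32.7%) and 1 did not pass. ATF4 mRNA had 258, 244 and 242 CPM in POGK libraries and 532, 515 and 399.6 CPM in control libraries. The groups did not overlap, and the log2 fold change was -0.96 ± 0.11 (edgeR adjusted p = 9.40e-05). ATF4 has 4 annotated pseudogenes that could take some of its reads. CEBPB, which dimerises with ATF4 and is widely inducible, had 113, 101 and 97.9 CPM in POGK libraries and 457, 355 and 283 CPM in control libraries, a fall of 3.50-fold (edgeR adjusted p = 2.51e-05). DDIT3, also called CHOP, the stress factor downstream of ATF4, had 15.0, 13.2 and 13.8 CPM in POGK libraries and 30.8, 37.5 and 23.0 CPM in control libraries. It fell 2.18-fold (edgeR adjusted p = 3.56e-04), and 1.92-fold without control library 2, which was highest. Of its exon length, 27.2% overlaps MARS1 on the opposite strand, whose reads cannot be told apart if counting ignored strand.

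JDP2, a repressor of the AP-1 type, fell to 37.4 ± 1.00 CPM in POGK cells, against 70.6 ± 6.34 CPM in control cells (n = 3 each; edgeR adjusted p = 2.74e-05). ATF5, a relative of ATF4, went the other way, with 15.6, 16.4 and 14.3 CPM in POGK libraries and 8.69, 9.86 and 7.51 CPM in control libraries. Its log2 fold change was 0.83 ± 0.12 (edgeR adjusted p = 4.18e-04), and 19.5% of its exon length overlaps NUP62 on the opposite strand. These 5 factors were called in the same direction without any 1 library. CEBPG, another partner of ATF4, did not pass and is described with control library 2.

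Among the 6 stress effectors, control library 2 was the highest of all libraries in 5 (83.3%, against 8.79% of all genes tested). It was at least 2-fold above both other control libraries in SESN2, TRIB3 and CHAC1, which are described after the others. STC2, a secreted glycoprotein of the stanniocalcin family, had 135, 137 and 141 CPM in POGK libraries and 578, 488 and 432 CPM in control libraries, a fall of 3.63-fold (log2 fold change -1.86 ± 0.11, edgeR adjusted p = 4.46e-06). NUPR1, a small stress-induced nuclear protein, had 11.1, 9.43 and 10.2 CPM in POGK libraries and 49.4, 51.0 and 37.6 CPM in control libraries, a fall of 4.49-fold (edgeR adjusted p = 5.78e-06). On the same strand, 16.5% of the exon length of NUPR1 is shared with another annotated gene. GDF15, a secreted cytokine of the TGF-beta family made under stress, had 103, 77 and 76 counts in POGK libraries and 379, 653 and 266 counts in control libraries. It fell 5.95-fold (log2 fold change -2.57 ± 0.30, edgeR adjusted p = 1.08e-04), and 4.77-fold without control library 2, which was highest. In each of these genes every POGK value lay below every control value.

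**Figure D2:**
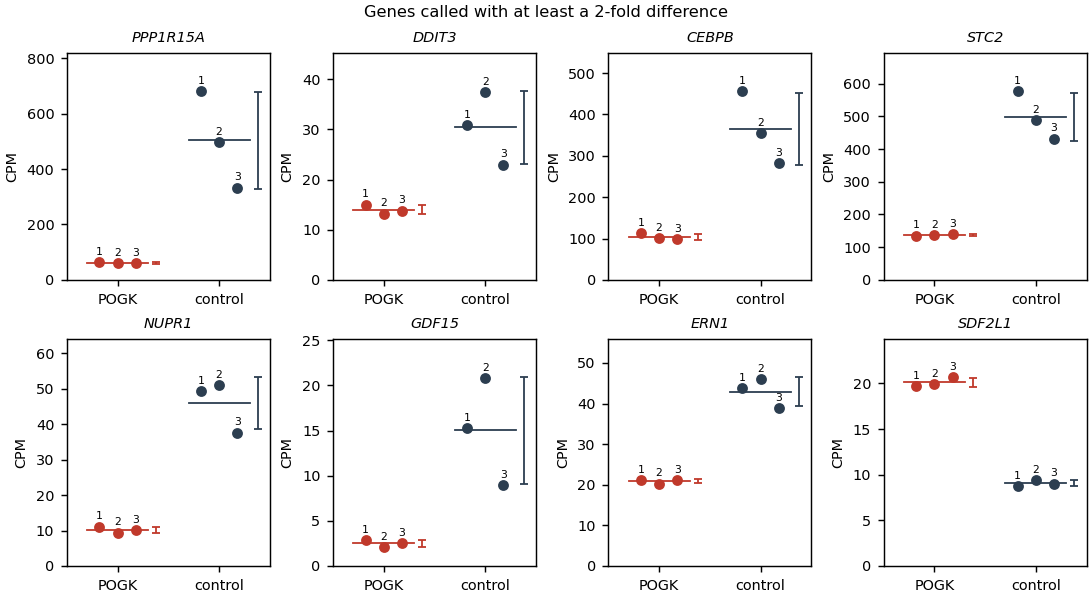
CPM in each library for the 8 genes called with at least a 2-fold difference in the fit with all 6 libraries. Points are libraries numbered 1 to 3 (POGK red, control dark), lines are means and bars are SD with n = 3 each. The POGK points lie below all control points in 7 genes and above them in SDF2L1. In those 7 genes the control points spread more widely, from 333 to 682 CPM in PPP1R15A. In SDF2L1 they do not (SD 0.306 CPM in control and 0.549 CPM in POGK cells).

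SESN2, a leucine sensor that restrains mTORC1, had 13.1, 10.0 and 12.1 CPM in POGK libraries and 13.9, 35.0 and 14.9 CPM in control libraries. Control libraries 1 and 3 lay just above the POGK libraries and control library 2 far above them. It was called lower at an edgeR adjusted p of 0.0486 (log2 fold change -0.86 ± 0.33), but the log2 fold change was -0.30 at an adjusted p of 0.0593 without control library 2. TRIB3 and CHAC1 did not pass with all libraries.

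In 6 of the 38 genes control library 2 was at least 2-fold above both other control libraries (15.8%, against 1.38% of all genes tested), and in 12 it was the highest of all 6 libraries (31.6%, against 8.79%). It was the lowest in 2 (against 9.06% of all genes) and above both other control libraries in 19 (against 36.1%). These are values of 1 library with no test. The genes were chosen with earlier results of these data known, so the shares are descriptions. Fold changes of genes picked for a high control library 2 rise when it is left out, by that choice alone. P-values without it are thus descriptions as well. CHAC1, an enzyme that breaks down glutathione and is a target of ATF4, had 129, 111 and 114 counts in POGK libraries and 8, 463 and 22 counts in control libraries, or 3.61, 3.07 and 3.85 CPM against 0.322, 14.8 and 0.741 CPM. POGK libraries lay above control libraries 1 and 3 and below control library 2. Its log2 fold change was -0.63 ± 1.00 with all libraries (edgeR adjusted p = 0.603) and 2.67 ± 0.29 without control library 2 (edgeR adjusted p = 7.64e-05).

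CTH, which makes cysteine from cystathionine, showed the same order of libraries, with 15.3, 15.2 and 14.0 CPM in POGK libraries and 5.72, 25.8 and 8.86 CPM in control libraries. With all libraries the log2 fold change was 0.13 ± 0.46 (edgeR adjusted p = 0.813), and 1.02 ± 0.16 without control library 2 (edgeR adjusted p = 6.88e-04). CEBPG had 57.2, 58.9 and 57.4 CPM in POGK libraries and 25.8, 75.7 and 33.6 CPM in control libraries. Its log2 fold change of 0.36 ± 0.34 did not pass (edgeR adjusted p = 0.375), and it was 0.96 ± 0.10 without control library 2 (edgeR adjusted p = 7.14e-05). In CHAC1, CTH and CEBPG the POGK libraries thus lay between control library 2 and the other control libraries.

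TRIB3, a pseudokinase induced by ATF4 and CHOP, had 52.2, 52.0 and 53.9 CPM in POGK libraries and 37.1, 111 and 37.3 CPM in control libraries, again in that order. Its log2 fold change was -0.23 ± 0.38 (edgeR adjusted p = 0.618) and turned to 0.50 ± 0.06 without control library 2 (edgeR adjusted p = 1.34e-04). ASNS, the asparagine synthetase, had only 70, 62 and 52 counts in POGK libraries and 45, 127 and 46 counts in control libraries. POGK libraries lay close to control libraries 1 and 3, and ASNS did not pass with all libraries (edgeR adjusted p = 0.252) or without control library 2 (log2 fold change 0.11 ± 0.19, edgeR adjusted p = 0.609). Its level per kilobase of exon, 0.369 CPM per kb in POGK cells and 0.505 in control cells, was the lowest of the 38 genes. On the same strand, 49.3% of its exon length is shared with another annotated gene, to which reads may have been split, and ASNS has 4 annotated pseudogenes, so its level is uncertain.

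**Figure D3:**
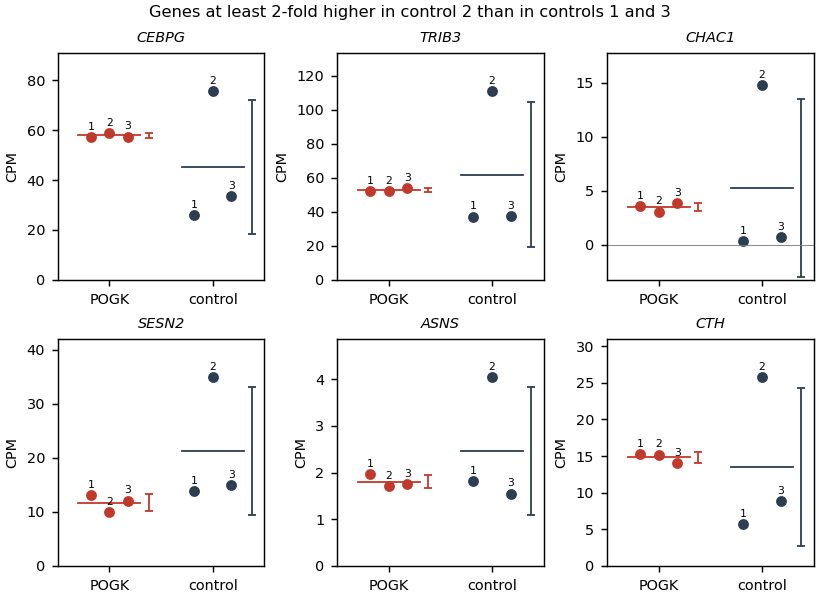
CPM in each library for the 6 genes in which control 2 was at least 2-fold above controls 1 and 3; points are libraries numbered 1 to 3 (POGK red, control dark), lines are means and bars are SD with n = 3 each. The POGK points lie between control 2 and the other controls in CEBPG, TRIB3, CHAC1 and CTH, for example at 3.07 to 3.85 CPM in CHAC1 against 14.8 CPM in control 2 and at most 0.741 CPM in the others.

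The proline synthesis enzymes did not share this pattern. PYCR1, which makes proline in the last step, had 131, 121 and 123 CPM in POGK libraries and 93.6, 104 and 93.0 CPM in control libraries, a log2 fold change of 0.37 ± 0.07 (edgeR adjusted p = 0.0018). Of its exon length, 14.1% is shared with MYADML2 on the same strand and 15.6% overlaps another gene on the opposite strand. ALDH18A1, which acts earlier in the same route, averaged 158 ± 3.45 CPM in POGK cells and 158 ± 13.0 CPM in control cells (n = 3 each), with a log2 fold change of 0 ± 0.08 (edgeR adjusted p = 0.963). With library size alone ALDH18A1 passed, at 0.20 (edgeR adjusted p = 0.0166).

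Fold changes of all 38 genes with and without control library 2 are plotted together. The genes whose call changed were CEBPG, TRIB3, CHAC1, CTH, XBP1, ATF6 and SEL1L, which were called higher without control library 2, and SESN2 and MANF, which were no longer called.

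**Figure D4:**
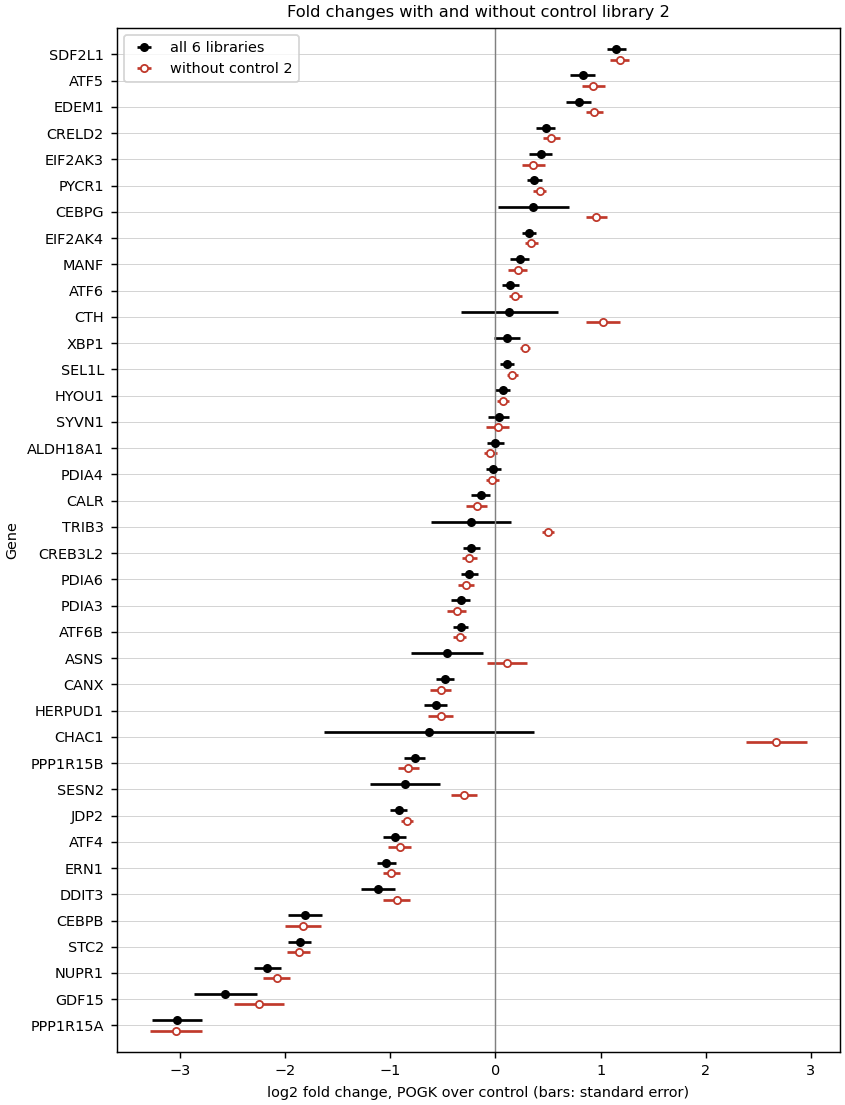
Log2 fold change of POGK over control for each of the 38 genes from the edgeR fit with all 6 libraries (filled) and without control 2 (open); bars are standard errors. Most pairs of points lie close together, whereas CHAC1 is at -0.63 with all libraries and 2.67 without control 2, and CTH at 0.13 and 1.02.

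Of the 5 ER sensors and factors, 3 fell (60.0%, against 33.3% of all genes tested) and 2 did not pass. ERN1, also called IRE1, the sensor that splices XBP1 mRNA, had 21.2, 20.3 and 21.1 CPM in POGK libraries and 43.8, 46.0 and 38.9 CPM in control libraries. It fell 2.06-fold (log2 fold change -1.04 ± 0.09, edgeR adjusted p = 2.07e-05), and 1.98-fold without control library 2, which was highest. ATF6B, a relative of the sensor ATF6, fell to 47.7 ± 1.45 CPM in POGK cells, against 59.9 ± 2.09 CPM in control cells (n = 3 each; edgeR adjusted p = 0.00233), and CREB3L2, an ER-bound bZIP factor, had a log2 fold change of -0.23 ± 0.08 (edgeR adjusted p = 0.0248). With library size alone neither passed, and CREB3L2 also did not pass without any 1 of the POGK libraries.

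XBP1, whose spliced form activates chaperone and degradation genes, had 142, 137 and 137 CPM in POGK libraries and 111, 158 and 117 CPM in control libraries. XBP1 has 1 annotated pseudogene. The POGK values lay between control library 2 and the others, and XBP1 did not pass (log2 fold change 0.11 ± 0.12, edgeR adjusted p = 0.466). Without control library 2 it was called higher at 0.28 ± 0.05 (edgeR adjusted p = 0.00185). ATF6 averaged 111 ± 3.08 CPM in POGK cells and 100.5 ± 8.06 CPM in control cells (n = 3 each) and did not pass (edgeR adjusted p = 0.129). It was called higher without control library 2 (edgeR adjusted p = 0.0214) and with library size alone (edgeR adjusted p = 0.0146).

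Of the 9 ER folding genes, 3 rose (33.3%, against 32.7% of all genes tested), 3 fell (33.3%, against 33.3%) and 3 did not pass. These shares are near the background, and all but SDF2L1 differed by 1.40-fold or less. SDF2L1, a small partner of ER chaperone complexes, showed the clearest rise, with 19.7, 19.9 and 20.7 CPM in POGK libraries and 8.77, 9.38 and 9.03 CPM in control libraries. It rose 2.22-fold (log2 fold change 1.15 ± 0.09, edgeR adjusted p = 1.64e-05), and its control libraries spread only 3.38% (coefficient of variation). CRELD2, a protein of ER redox folding, had 42.7, 42.0 and 46.2 CPM in POGK libraries and 32.1, 33.1 and 28.5 CPM in control libraries, a log2 fold change of 0.48 ± 0.09 (edgeR adjusted p = 0.00108). MANF, a secreted ER stress protein, was called higher only narrowly (log2 fold change 0.23 ± 0.09, edgeR adjusted p = 0.0432). MANF was called higher in 1 of the 6 fits that leave out 1 library.

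CANX, the membrane-bound lectin chaperone, had 1392, 1412 and 1401 CPM in POGK libraries and 2188, 1828 and 1844 CPM in control libraries, a log2 fold change of -0.48 ± 0.09 (edgeR adjusted p = 0.00191). PDIA3, the disulfide isomerase that works with it, and PDIA6, another disulfide isomerase, were called lower at log2 fold changes of -0.33 ± 0.09 and -0.25 ± 0.08 (edgeR adjusted p = 0.00998 and 0.0223). Both calls were lost with library size alone and without POGK library 2 or 3, and the call of PDIA6 also without POGK library 1. PDIA3 has 2 annotated pseudogenes that could take some of its reads, and 25.2% of the exon length of PDIA6 overlaps ATP6V1C2 on the opposite strand.

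CALR, the soluble partner of CANX, had the highest level per kilobase of exon of the 38 genes, 397 CPM per kb in POGK cells and 437 in control cells. Its log2 fold change of -0.14 ± 0.09 did not pass (edgeR adjusted p = 0.21) and was 0.06 with library size alone. PDIA4 at -0.02 ± 0.07 and HYOU1, the exchange factor of the chaperone BiP, at 0.07 ± 0.07 did not pass either (edgeR adjusted p = 0.838 and 0.393). With library size alone both passed as higher, at 0.18 and 0.26. PDIA4 and CALR thus turned direction with the scaling.

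The ER-associated degradation genes also divided. EDEM1, which delivers misfolded glycoproteins for degradation, had 142, 145 and 147 CPM in POGK libraries and 68.0, 100.4 and 82.7 CPM in control libraries. It rose 1.73-fold (log2 fold change 0.79 ± 0.12, edgeR adjusted p = 5.20e-04) and 1.92-fold without control library 2. HERPUD1, a membrane protein of the degradation complex, had 99.1, 87.8 and 87.3 CPM in POGK libraries and 149, 146 and 113 CPM in control libraries, a log2 fold change of -0.57 ± 0.11 (edgeR adjusted p = 0.00166). SYVN1, the ubiquitin ligase also called HRD1, and SEL1L, its adaptor, did not pass at log2 fold changes of 0.03 ± 0.10 and 0.11 ± 0.07 (edgeR adjusted p = 0.828 and 0.191). SEL1L was called higher without control library 2, at 0.16 (edgeR adjusted p = 0.0297).

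The calls were set beside the promoter elements. Among all genes tested, 32.7% were called higher and 33.3% lower in POGK cells. Of the 8 genes with ER stress response element I or II, SDF2L1 and CRELD2 rose, CANX, PDIA6 and HERPUD1 fell, and XBP1, CALR and HYOU1 did not pass. Of the 7 with a composite site, PPP1R15B, JDP2, CREB3L2 and HERPUD1 fell and CEBPG, CHAC1 and ASNS did not pass. CEBPG, CHAC1 and ASNS were also among the 6 genes at least 2-fold higher in control library 2, whereas for TRIB3, SESN2 and CTH these letters were not in this window.

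Other genes of the same pathways were listed by role. Of 24 other ATF4 targets, all tested, 2 rose, 7 fell and 15 did not pass, and their median log2 fold change was -0.09. The share called was 37.5%, against 66.0% of all genes tested, with 8.33% higher (against 32.7%) and 29.2% lower (against 33.3%). KLHL24, an autophagy-linked adaptor of a ubiquitin ligase, fell 3.47-fold, BBC3, the pro-apoptotic protein PUMA, 4.01-fold, and VLDLR, a lipoprotein receptor, 2.42-fold (edgeR adjusted p = 8.70e-06, 2.38e-05 and 3.70e-05). Control library 2 was the highest of the 6 libraries in 16 of the 24 (66.7%, against 8.79% of all genes) and at least 2-fold above both other control libraries in 8 (33.3%, against 1.38%). Without it 11 of the 24 were called higher (against 34.9% of all genes) and 7 lower (against 34.3%). This list too was chosen with earlier results of these data known, so these shares are descriptions.

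Examples chosen after their values were seen are an enzyme of serine synthesis and an amino acid transporter. PSAT1, an enzyme of serine synthesis, had 145, 144 and 142 CPM in POGK libraries and 52.4, 185 and 58.0 CPM in control libraries. SLC7A5, the large neutral amino acid transporter, had 231, 228 and 234 CPM in POGK libraries and 100, 320.3 and 99.4 CPM in control libraries. Neither passed with all libraries (log2 fold changes 0.54 and 0.41, edgeR adjusted p = 0.289 and 0.399), and without control library 2 they were called higher at 1.38 ± 0.06 and 1.21 ± 0.05 (edgeR adjusted p = 1.20e-06 and 1.16e-06). Both were picked with the high level of that library seen, so the p-values without it are descriptions. Other genes of these classes divided without control library 2. PHGDH and SLC3A2 did not pass, at 0.08 and 0.18 (edgeR adjusted p = 0.262 and 0.153). PSPH and SLC7A11 were called higher, at 0.92 and 1.55 (edgeR adjusted p = 5.84e-05 and 2.48e-05). ATF3, a stress-induced bZIP factor, by contrast fell to 8.40 ± 0.836 CPM in POGK cells, against 26.4 ± 9.32 CPM in control cells (n = 3 each; edgeR adjusted p = 4.19e-04).

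**Figure D5:**
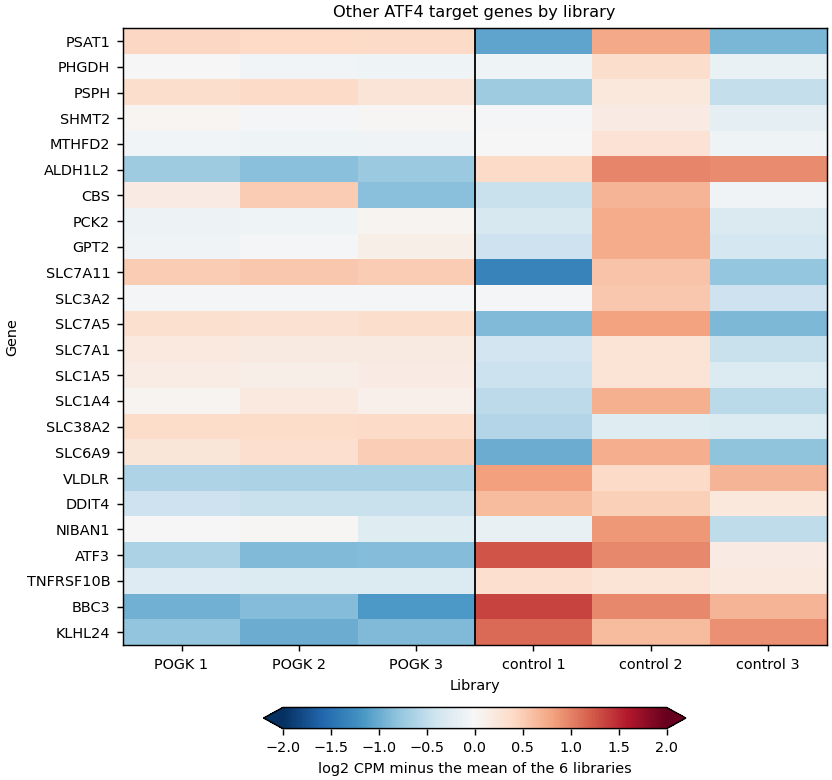
Level of each of the 24 other ATF4 targets (rows) in each library (columns, 3 POGK and 3 control), as log2 CPM minus the gene's mean over the 6 libraries, with colours capped at 2 in either direction. Control 2 is the highest library in 16 of the 24, among them PSAT1 at 185 CPM against 52.4 and 58.0 CPM in controls 1 and 3.

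Of 18 other ER folding genes, 3 rose, 12 fell and 3 did not pass, and their median log2 fold change was -0.38. The higher calls are 16.7% of the list, against 32.7% of all genes tested, and the lower calls 66.7%, against 33.3%. With library size alone 8 of them were called lower, and 9 without POGK library 2 or 3. DNAJC10, an ER reductase, rose 1.68-fold, while ERP29 and HSPA13, an ER folding factor and an ER-bound relative of heat shock protein 70, fell 1.82-fold and 1.60-fold (edgeR adjusted p = 3.84e-05, 7.42e-05 and 1.09e-04). HSPA5, the chaperone BiP, chosen after its values were seen, averaged 849 ± 37.6 CPM in POGK cells and 874 ± 156 CPM in control cells (n = 3 each) and did not pass (edgeR adjusted p = 0.787). Of 15 other tested genes of ER-associated degradation, 9 rose (60.0%, against 32.7% of all genes tested), 4 fell (26.7%, against 33.3%) and 2 did not pass. OS9, a lectin of that route, fell 2.87-fold, and VCP, the ATPase that extracts proteins from the membrane, and DERL2, a channel component, rose 1.78-fold and 1.47-fold (edgeR adjusted p = 9.30e-06, 1.56e-05 and 3.68e-04).

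Of 18 other signalling parts, 10 rose (55.6%, against 32.7% of all genes tested), 4 fell (22.2%, against 33.3%) and 4 did not pass. CREBRF, a negative regulator of CREB3 factors, fell to 9.62 ± 0.887 CPM in POGK cells, against 56.4 ± 12.1 CPM in control cells (n = 3 each; edgeR adjusted p = 6.40e-06). MBTPS2, a protease that cleaves ATF6, and RTCB, the ligase that joins XBP1 mRNA after IRE1 cuts it, rose 1.69-fold and 1.68-fold (edgeR adjusted p = 2.32e-05 and 3.87e-05). In none of these 3 further lists was control library 2 the highest of the 6 libraries for any gene.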

How the data were processed

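RNA sequencing of rRNA-depleted total RNA from 3 POGK and 3 control libraries was analysed. Per the submitters' processing notes, Trimmomatic, STAR, SAMtools, deepTools and featureCounts were used with build hg38. No label or header gives tool versions, annotation or strand setting. The deposited table holds raw read counts per Ensembl gene. Per the file headers and values, the authors also deposited a signal per library (counts divided by 1 size factor), a log2 fold change and its error, the score of their test, and p-values. The authors' deposited table called 7 of the 38 genes higher and 15 lower, and 34 calls were the same as here. Positions and exon lengths came from GENCODE on hg38.

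All tests used the counts in edgeR 4.0.16 (R 4.3.3): quasi-likelihood test with robust estimation, TMM scaling, default filter, Benjamini-Hochberg adjustment over 15889 genes. Standard errors come from the F statistic. The fit gives both groups the same spread per gene, although control libraries spread more. Replicate pairs differed beyond sampling noise (chi-square per gene 1.36 to 2.62 between POGK and 22.5 to 49.7 between control libraries). The scripts were tested on simulated data. Alternatives used DESeq2 1.42.0, limma 3.58.1 and other settings. The genes and lists were chosen with earlier results of these data known. All 38 genes are named, and of each other list the 3 genes with the smallest adjusted p. Counts limit precision for low genes such as CHAC1 and ASNS.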

Additional observations from a re-analysis of the deposited data

How the results depend on the processing

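With library size alone as scaling, 13 of the 38 genes were higher. The counts higher were then 2 in amino acid synthesis, 1 in ER sensors, 5 in ER folding and 2 in ER-associated degradation, and the counts lower were 1 in ER sensors and 1 in ER folding. The median over the 38 genes was -0.04, CALR turned to 0.06 and PDIA4 to 0.18. The median was -0.09 with limma-voom, also with a variance weight per group, where 4 other ATF4 targets were higher. CHAC1 turned to 1.02 and 1.01 in these fits. ALDH18A1, at 0 with all libraries, was again 0 with DESeq2-style size factors and -0.01 with a filter of 1 CPM in 3 libraries or protein-coding genes only.

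With 1 library left out, 7 to 14 of the 38 genes were higher and 13 to 17 lower. The median lay between -0.28 and -0.04 (-0.04 without control library 2). Higher counts lay at 1 to 2 for bZIP factors, 0 to 2 for stress effectors, 1 to 2 for amino acid synthesis, 0 to 2 for ER sensors, 1 to 2 for ER-associated degradation and 1 to 11 for other ATF4 targets, and lower ER folding genes at 1 to 3. ALDH18A1 ranged from -0.05 to 0.07, ASNS from -0.72 to 0.11, CHAC1 from -1.16 to 2.67, CTH from -0.22 to 1.02, PDIA4 from -0.03 to 0.02, SYVN1 from -0.05 to 0.12 and TRIB3 from -0.49 to 0.50.

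Same-numbered libraries showed little shared deviation (correlations 0.09, 0.04 and 0 over genes, against -0.09 to 0.05 for the other pairs). POGK 1 and POGK 2 correlated best with the control of their own number, and POGK 3 with control 2. With the replicate block the median was -0.08 and CHAC1 turned to 0.47, and SESN2 lost its call. On 1 strand, element I was found in 3 genes, element II in 1 and TGACGTG in 1. SESN2 and MANF were each called in only some settings, and the causes were not tested.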
